A study of Mus musculus with 4 samples.

Results

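LSK cells are the stem and progenitor cells of mouse bone marrow that lack lineage markers (Lin−) and carry Sca1 and cKit on their surface. The genes described here encode 8 surface proteins by which LSK cells and their multipotent progenitor (MPP) subsets are sorted, and they were chosen by name: Kit, Ly6a, Flt3, Cd48, Slamf1, Cd34, Procr and Esam, 8 of the 27998 genes in the deposited count tables. Single-cell RNA was collected from LSK cells of Nup358 fl/fl mice, the controls, and of Nup358 fl/fl mice carrying CreERT2 in the Rosa26 locus, the knockouts. Tamoxifen was given for 3 days and, by the study's descriptions of its animals, to both genotypes. It drives deletion in the knockouts in every tissue that expresses the locus, and the control mice lack CreERT2, so an effect of the recombinase itself cannot be told apart from that of the deletion. Mice were 9 to 12 weeks old, and each of the 4 libraries, 2 per genotype, pooled 3 bone marrows, 12 mice in all.

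In the usual scheme, cKit (encoded by Kit) is the receptor for stem cell factor and Sca1 (encoded by Ly6a) is a small membrane-anchored protein, and both are required of an LSK cell. Flt3 (CD135) is the receptor for Flt3 ligand and marks progenitors with lymphoid potential, whereas the neighbouring adhesion receptors CD150 (encoded by Slamf1) and CD48 belong to the SLAM family and separate stem cells from progenitors. By these proteins MPP2 cells are Flt3-negative, CD48-positive and CD150-positive, MPP3 cells are Flt3-negative, CD48-positive and CD150-negative, and MPP4 cells are Flt3-positive. Long-term stem cells carry CD150 but neither of the other two, and short-term stem cells carry none. CD34, a sialomucin, the endothelial protein C receptor EPCR (encoded by Procr) and the adhesion molecule ESAM complete the set, EPCR and ESAM being used to enrich stem cells. The measurements below are of RNA, and none of them is of the proteins on the cells.

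In the reference annotation of GRCm38, Slamf1 (chr1:171767127-171801184, plus strand) lies next to Cd48 (chr1:171682009-171705258, plus strand). Kit (chr5:75574916-75656722, plus strand) and Flt3 (chr5:147330741-147400489, minus strand) are both on chromosome 5. Ly6a is at chr15:74994877-74998031 on the minus strand, Cd34 at chr1:194938819-194961279, Procr at chr2:155751117-155755471 and Esam at chr9:37528078-37538319, the last 3 on the plus strand. RefSeq promoter windows (GRCm38.p6) matched 6 of the 8 genes. The 250 bases before RefSeq's start are shown, a start that differs from the gene bounds above for Slamf1, Cd48 and Procr, so that the Slamf1 and Procr windows reach into those bounds. They are given for Slamf1 and Cd48, neighbours whose RNA went opposite ways in 3 of the lineage lists below, and for Procr and Flt3, the markers with the largest rise in stem-list and in early lymphoid cells, 5′ to 3′ on each gene's own strand. Capitals mark, on either strand, the GATA factor core GATAA, the ETS core GGAAG, the RUNX core TGTGGT and the AP-1 site TGACTCA.

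Slamf1, chr1:171766882-171767131, plus strand: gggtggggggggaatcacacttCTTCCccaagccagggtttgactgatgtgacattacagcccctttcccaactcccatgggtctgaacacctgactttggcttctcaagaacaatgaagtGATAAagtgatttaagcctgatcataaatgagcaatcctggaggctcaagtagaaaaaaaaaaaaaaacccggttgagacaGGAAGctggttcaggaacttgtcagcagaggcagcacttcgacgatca
Cd48, chr1:171681742-171681991, plus strand: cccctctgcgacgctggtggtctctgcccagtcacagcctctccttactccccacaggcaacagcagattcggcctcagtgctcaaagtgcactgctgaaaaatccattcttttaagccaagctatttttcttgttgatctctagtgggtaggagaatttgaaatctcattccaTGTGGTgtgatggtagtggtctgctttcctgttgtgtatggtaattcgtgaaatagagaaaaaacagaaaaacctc
Procr, chr2:155750967-155751216, plus strand: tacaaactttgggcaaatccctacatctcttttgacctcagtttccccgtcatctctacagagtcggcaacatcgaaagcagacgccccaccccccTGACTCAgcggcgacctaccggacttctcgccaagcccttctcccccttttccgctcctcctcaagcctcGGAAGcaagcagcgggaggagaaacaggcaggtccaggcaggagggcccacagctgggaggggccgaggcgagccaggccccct
Flt3, chr5:147400490-147400739, minus strand: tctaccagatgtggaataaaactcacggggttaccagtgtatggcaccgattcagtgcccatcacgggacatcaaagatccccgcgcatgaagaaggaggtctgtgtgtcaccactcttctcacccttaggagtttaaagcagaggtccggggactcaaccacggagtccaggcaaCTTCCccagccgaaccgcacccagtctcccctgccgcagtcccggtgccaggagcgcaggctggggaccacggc

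GATAA was found in the Slamf1 window, beginning 129 bases before the start, and in none of the other 5 matched genes. TGTGGT was found only in the Cd48 window, beginning 76 bases before the start. TGACTCA was found only in the Procr window. GGAAG was found in the windows of Kit, Flt3, Slamf1, Cd34 and Procr. Of all 32817 mouse promoter windows of this length, 22.6% held GATAA, 14.0% TGTGGT, 4.46% TGACTCA and 64.1% GGAAG, so only TGACTCA is a rare match, and a match is a description of the letters and not of binding.

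The libraries held 25242 barcodes. Of the barcode sequences, 6680 occurred in more than 1 library. A barcode with at least 3 times its UMIs in another library made up 81.8% of control replicate 2 and 65.3% of knockout replicate 1, against 14.8% of control replicate 1 and 18.8% of knockout replicate 2. These copied barcodes, which held 1.61% to 24.6% of a library's UMIs, were left out, which left 7830, 1200, 1589 and 3422 cells in control replicates 1 and 2 and knockout replicates 1 and 2, with 18846887 to 59033602 UMIs per library and a median of 6251 UMIs per cell in control replicate 1 against 13176 to 17707 in the others. The targeted gene, listed as Ranbp2, stood at 127 and 101 CPM (UMIs scaled to a common total) in the controls and 124 and 126 in the knockouts. The counts come from the 3′ end of the RNA and the deleted part is exon 2, so this level tests nothing about the deletion.

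All 8 RNAs were detected in every library. Over all cells used, Slamf1 and Esam showed the widest gap between genotypes, followed by Ly6a, Procr and Flt3, and Flt3, Kit and Cd34 were the members lower in the knockouts. Levels are given as CPM, the UMIs of a gene scaled to the same total of UMIs in every library, and they are compared here within a gene. No member passed the edgeR quasi-likelihood test at an adjusted p of 0.05 (0 of 8, where 3.44% of the 13779 genes tested did). An unadjusted p below 0.05 was given to 3 members (Slamf1, Esam and Ly6a) and to 2986 of the 13779 genes. DESeq2 on the same sums called Slamf1 and Esam, where it called 5.96% of all genes it tested.

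Kit stood at 96.0 and 103 CPM in the controls and at 89.8 and 73.3 in the knockouts. Ly6a stood at 133 and 190 in the controls and at 317 and 218 in the knockouts. For both LSK-defining genes the genotypes did not overlap, but the gap between the knockout replicates was nearly as wide as the gap between the genotype means. The log2 fold change, knockout over control, was −0.33 ± 0.16 (SE, n = 2 libraries per genotype) for Kit and 0.68 ± 0.25 for Ly6a, with adjusted p-values from edgeR of 0.288 and 0.180.

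Flt3 stood at 40.9 and 72.5 CPM in the controls and at 39.4 and 36.0 in the knockouts. Control replicate 1 was close to both knockouts and only control replicate 2 stood well above them. The log2 fold change was −0.63 ± 0.27 (edgeR adjusted p = 0.238). Cd48 stood at 94.8 and 137 in the controls and at 158 and 158 in the knockouts, a log2 fold change of 0.40 ± 0.21 (edgeR adjusted p = 0.316).

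Slamf1, the CD150 gene, was sparse, with 1164 UMIs in all. It stood at 2.76 and 4.88 CPM in the controls and at 8.95 and 11.4 in the knockouts, so that each knockout lay well above the higher control. Its log2 fold change of 1.43 ± 0.31 (edgeR adjusted p = 0.0564) came closest of the members to the threshold, and over 13 other settings of the fit the adjusted p ran from 3.57e-08 to 0.116 and passed in 7. Esam stood at 11.6 and 19.4 in the controls and at 27.7 and 32.9 in the knockouts, a log2 fold change of 0.94 ± 0.26 (edgeR adjusted p = 0.0992, passed in 7 of 13 settings).

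Procr stood at 6.37 and 11.2 CPM in the controls and at 14.7 and 13.3 in the knockouts, and Cd34 at 308 and 274 against 249 and 228. The knockouts were above both controls for Procr and below both for Cd34. Their log2 fold changes were 0.65 ± 0.28 and −0.33 ± 0.15, with edgeR adjusted p-values of 0.241 and 0.258. Genotypes that do not overlap are common in these libraries: all 8 members separated, and so did 53.9% of the 11747 genes with a mean of at least 1 CPM.

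**Figure D1:**
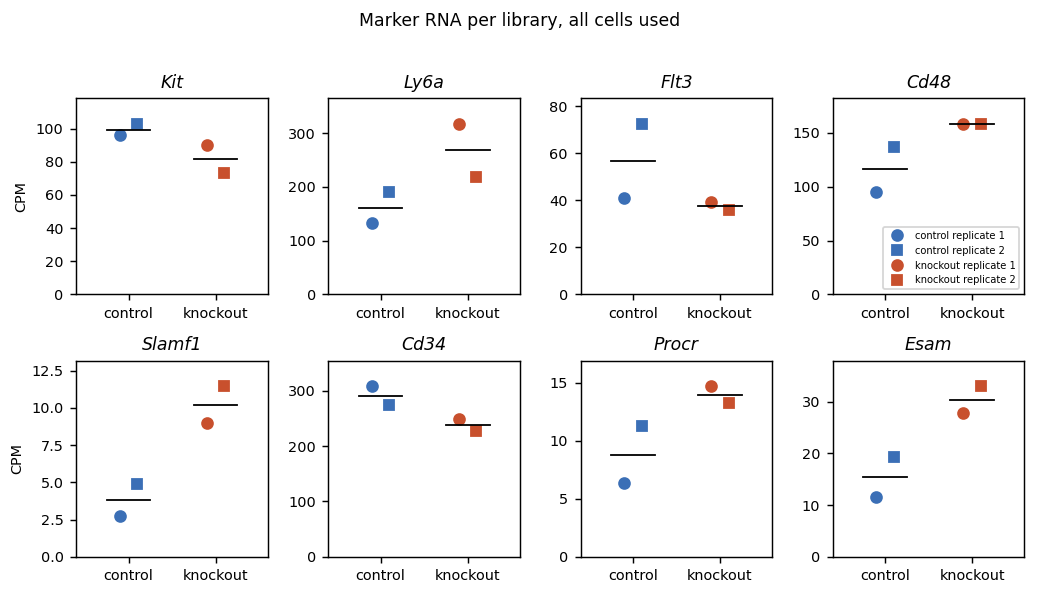
CPM (vertical axes, each from 0) of the 8 marker RNAs in the 2 control (blue) and 2 knockout (red) libraries, with circles for replicate 1, squares for replicate 2 and bars for the genotype means. The genotypes separate for every gene, but for Flt3 control replicate 1 (40.9) lies next to the knockouts (39.4 and 36.0).

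The call depended on which library was left out, but not on the copied barcodes, with which 0 members passed as well. Without control replicate 2, whose cells were few after copied barcodes were removed, 5 members passed (Ly6a, Cd48, Slamf1, Procr and Esam, where 13.4% of all genes did), and without control replicate 1 there were 3 (Flt3, Slamf1 and Esam, where 20.7% did). Without knockout replicate 1 there were 2 (Slamf1 and Esam, where 3.53% did), and without knockout replicate 2 none (2.68%). In these fits the lone library of a genotype is assumed to vary like the other pair.

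Much of the gap in Ly6a lay in few cells. Cells with at least 3 UMIs per 3000 of 6 genes of antibody-secreting cells (Jchain, Mzb1, Sdc1, Tnfrsf17, Derl3 and Prdm1, a list added after the data were seen) numbered 11 and 6 in the controls and 49 and 83 in the knockouts. They were 3.37% and 2.64% of knockout cells of at least 3000 UMIs, yet they held 23.9% and 20.0% of the Ly6a UMIs there, against 2.46% and 1.90% in the controls. Ly6a ran at 2741 and 2030 CPM in these knockout cells. No other member had more than 2.77% of its UMIs in them.

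A wider set of cells could be left out as well: those of the B cell, monocyte, plasmacytoid dendritic and T or NK lists together with the antibody-secreting list, here called the mature-cell lists, which made up 2.20% and 2.19% of control cells and 9.50% and 9.76% of knockout cells of at least 3000 UMIs. The name is that of the lists and not of the cells: Nkg7 alone gave 92.4% of the T or NK list's UMIs, and the cells of that list held Kit at 83.1 to 116 CPM and Cd34 at 166 to 314 in the 3 libraries with 20 or more such cells. Ly6c2 gave 38.5% and 51.5% of the monocyte list's UMIs in the controls and 84.7% and 96.5% in the knockouts. Without the cells of these lists Ly6a stood at 121, 185, 237 and 174 CPM in control replicates 1 and 2 and knockout replicates 1 and 2, so the genotypes overlapped. Its log2 fold change was then 0.39 ± 0.26 (edgeR adjusted p = 0.450), against 0.68 ± 0.27 (edgeR adjusted p = 0.240) with them, both over cells of at least 3000 UMIs. For Slamf1 the fold was as large without these cells (1.51 ± 0.34, edgeR adjusted p = 0.0800), and likewise for Esam (1.08 ± 0.32, edgeR adjusted p = 0.135) and Procr (0.83 ± 0.35), while Flt3 stood at −0.56 ± 0.28. In a sum over cells, fewer cells with an RNA and less RNA per cell cannot be told apart, so detection was counted per cell next.

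Detection depends on depth, so each cell of at least 3000 UMIs was thinned to 3000, which left 6730, 1186, 1453 and 3144 cells and left out 14.0% of control replicate 1 and 1.17% to 8.56% of the others. Cd34 had a UMI in 58.6% and 52.9% of control and 49.1% and 45.0% of knockout cells. It was the RNA found in most cells in every library but knockout replicate 1, where Ly6a was found in slightly more. Ly6a was found in 28.1% and 37.7% of control cells and 49.97% and 39.2% of knockout cells. Kit, although cKit protein was required in the sort, gave a UMI in 25.1% and 27.8% of control and 22.4% and 20.0% of knockout cells.

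Cd48 was found in 22.6% and 28.1% of control and 31.6% and 32.0% of knockout cells, and Flt3 in 12.6% and 18.6% of control and 11.1% and 10.7% of knockout cells. The 3 RNAs linked with stem cells were rare at this depth. Slamf1 was found in 0.906% and 1.52% of control and 3.097% and 3.37% of knockout cells. Procr was found in 2.10%, 5.23%, 5.44% and 4.52% and Esam in 3.61%, 6.83%, 6.81% and 10.7%, in the order of the libraries above. At this depth the genotypes overlapped for Procr and Esam. For Esam they did not at 1000 UMIs, at 6000 (4.29% and 13.02% against 15.1% and 17.5%) or without thinning, and for Procr they did not at 6000 (2.24% and 7.12% against 9.39% and 8.04%) or without thinning. An exact permutation test over 2 libraries against 2 cannot give a two-sided p below 0.333, and the p for Procr and Esam at 3000 UMIs was 0.667.

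Without thinning, the difference of Slamf1 widened to 12.5% and 12.1% of knockout cells against 1.89% and 5.83% of control cells, while Kit, at 46.4% and 73.8% of control and 64.4% and 56.0% of knockout cells, no longer differed in one direction. For Kit the control replicates lay further apart than the genotypes, and the median depth of those libraries differed in the same order.

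RNA detection cannot stand for the sort gate. At 3000 UMIs a cell had on average 1.54 to 1.79 of the 8 RNAs, at most 6, and 10.4% to 16.2% of cells had none. Kit and Ly6a, whose proteins every sorted cell should carry, were both found in 8.05% and 11.2% of control and 10.9% and 8.17% of knockout cells, and neither was found in 38.5% to 54.8%. At full depth both were found in 22.8% of cells of control replicate 1 and in 44.3% to 57.3% of the other libraries.

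These shares were set beside those of the lineage class, described below, in which a gene was found least. The classes were picked from these same data, pool the libraries and may hold the RNA, so they are no noise floor. In the 205 cells of the B cell list (median 12737 UMIs), Kit was found in 7.32% (95% exact interval 4.15% to 11.8%) and Cd34 in 4.88% (2.36% to 8.79%) after thinning, against 24.6% and 52.1% of the 3972 cells below the cut of every lineage list (median 11606 UMIs). In the 199 cells of the erythroid list (median 13278 UMIs), Flt3 was found in 0.503% (0.0127% to 2.77%), against 12.7%. In the 498 early lymphoid cells (median 11287 UMIs), Slamf1 was found in 0.402% (0.0487% to 1.44%), Procr in 1.00% and Esam in 1.20%, against 3.02%, 3.95% and 10.0%. The share of Procr in control replicate 1, 2.10%, was not far above that of the early lymphoid cells, and these intervals cover counting error only.

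Pairs of RNAs were then counted in the same thinned cells. For each of the 28 pairs the number of cells with both was divided by the number that independent detection would give, per library, as a description with no test. The ratio was above 1 in all 4 libraries for 8 pairs, below 1 in all 4 for 9 and mixed for 11. Among the 3972 cells below the cut of every list, which are more alike in lineage, 6 pairs were above 1, 5 below and 17 mixed.

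Procr and Esam, both linked with stem cells, occurred together more often than independence gives in every library, with ratios of 2.75 and 2.60 in the controls and 1.11 and 1.91 in the knockouts, on 60 cells against 29.9 expected. Ly6a occurred with Procr at 1.62, 1.63, 1.22 and 1.40 and with Esam at 1.38, 1.44, 1.23 and 1.24. Slamf1 and Esam had the highest mean ratio, 2.12, but it rested on 33 cells and ran from 0.813 to 4.54. Kit went with each of Slamf1 (1.18 to 1.597), Procr (1.09 to 1.68) and Esam (1.146 to 1.42), and Flt3 with Cd34 (1.11 to 1.22).

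The 9 pairs below 1 in every library were Flt3 with Slamf1 and with Esam, Cd48 with Procr, Esam, Ly6a and Kit, Slamf1 with Cd34 and with Ly6a, and Cd34 with Esam. Flt3 and Slamf1 were found together in 14 cells against 27.4 expected, with ratios of 0.781, 0.298, 0.401 and 0.441. Cd48 occurred with Procr at 0.402 to 0.801 and with Esam at 0.440 to 0.712. Slamf1 and Cd34 stood at 0.420 to 0.776, and Flt3 and Esam at 0.500 to 0.914. Cd48 and Slamf1, the pair that marks MPP2 by protein, stood at 0.654, 1.19, 0.563 and 0.856, on 52 cells against 66.9 expected. Kit and Ly6a, the pair that defines the sort, stood at 0.973 to 1.14, near independence.

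**Figure D2:**
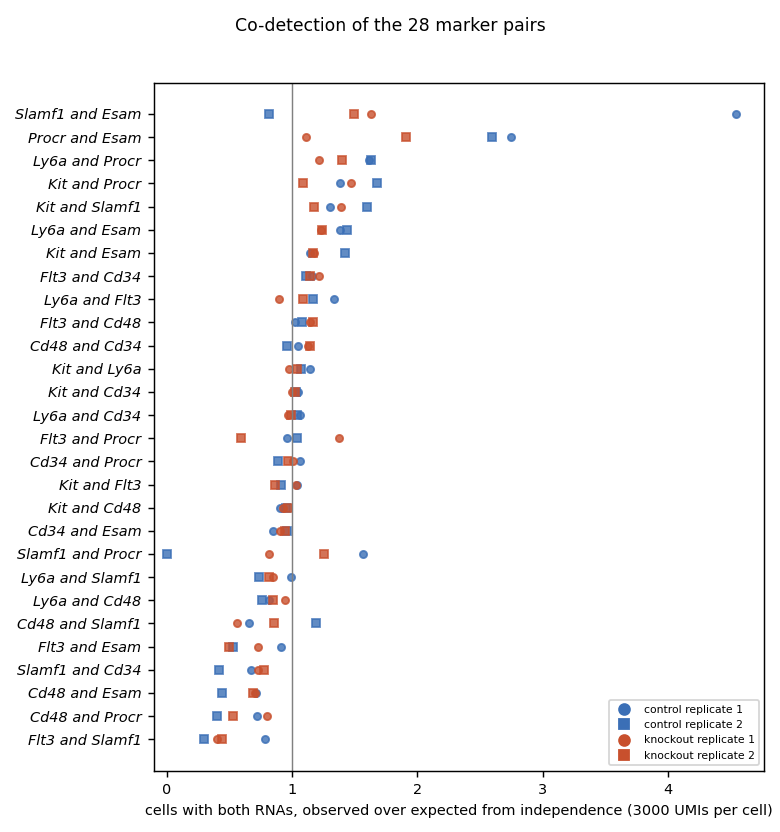
Ratio of observed to expected cells with both RNAs (horizontal axis, linear, 1 marks independence) for the 28 pairs, sorted by mean ratio, with 1 point per library (blue control, red knockout, circles replicate 1, squares replicate 2). Procr and Esam lie above 1 in every library (1.11 to 2.75) and Flt3 and Slamf1 below 1 in every library (0.298 to 0.781).

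The protein definitions of the subsets were applied to the RNA as patterns of Flt3, Cd48 and Slamf1. At 3000 UMIs a cell without a UMI often has the RNA, so these are patterns and not subsets. The MPP2 pattern (no Flt3, with Cd48 and Slamf1) was found in 7 of 6730 and 6 of 1186 control cells and in 8 of 1453 and 26 of 3144 knockout cells, that is in 0.104%, 0.506%, 0.551% and 0.827%. The knockouts lay above the controls, but at this depth control replicate 2 and knockout replicate 1 differed by less than counting error (exact permutation p = 0.333, two-sided, the smallest possible). Independent detection of the 3 RNAs would give 0.179%, 0.347%, 0.870% and 0.963%, so at this depth the knockout shares lay below what the single RNAs give. Without thinning the pattern was found in 0.358% and 2.42% of control and 6.04% and 6.11% of knockout cells, where independent detection would give 0.613%, 1.91%, 5.30% and 5.49%. There the 95% exact intervals of control replicate 2 (1.62% to 3.45%) and knockout replicate 1 (4.92% to 7.33%) did not meet, in libraries of unequal depth. At 6000 UMIs the shares were 0.293%, 0.868%, 1.85% and 2.24%, against 0.490%, 0.956%, 2.20% and 2.61% under independence. At that matched depth the intervals of control replicate 2 (0.417% to 1.59%) and knockout replicate 1 (1.20% to 2.72%) met. All these intervals cover counting error within a library and not the spread between libraries of a genotype.

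The pattern of long-term stem cells (Slamf1 alone) was found in 0.713% and 0.927% of control cells and 2.41% and 2.39% of knockout cells. The MPP3 pattern (Cd48 alone) was found in 19.6% and 21.9% against 27.0% and 27.2%, and the MPP4 pattern (Flt3) in 12.6% and 18.6% against 11.1% and 10.7%. The pattern with none of the 3 took 67.0%, 58.0%, 58.9% and 58.9%. Of the 47 cells of the MPP2 pattern, 21 were among the 3972 cells below the cut of every lineage list (0.529%). Neutrophil-list cells gave 7 of 5787 (0.121%) and erythroid-list cells 5 of 199 (2.51%). Megakaryocyte-list cells gave 2 of 273 (0.733%) and stem-list cells 2 of 966 (0.207%), all pooled over the libraries and on few cells.

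To relate the markers to lineage priming, each thinned cell was assigned to the list, of 10 lists of lineage genes with no member among them, from which it had the most UMIs, with at least 3. Cells with fewer than 3 UMIs of every list formed the reference class, 18.2% and 34.1% of control and 45.4% and 53.7% of knockout cells. Neutrophil-list cells were 66.1% of control replicate 1 and 33.8%, 28.2% and 16.9% of the others, led by Prtn3 in all, while Elane made up 26.2% and 24.2% of the list's UMIs in the controls and 4.73% and 4.603% in the knockouts. The list with most UMIs is a range and not a cell type: the medians were 10 neutrophil-list UMIs in that class and 4 stem-list UMIs in the stem class, close to the cut. UMIs were summed per class and library, and each class was tested against the reference class with the library as a block. The comparisons share the reference cells.

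In stem-list cells (966 cells, led by Hlf and Mecom) Procr rose most, by 1.44 ± 0.13 on the log2 scale (edgeR adjusted p = 9.38e-07). Procr ran at 30.2 and 46.5 CPM in the controls and 43.4 and 36.8 in the knockouts, against 6.42, 13.3, 16.8 and 15.3 in the reference cells. Esam (0.64 ± 0.09), Ly6a (0.63 ± 0.05) and Kit (0.27 ± 0.05) also rose. Cd48 fell by 1.17 ± 0.11 (edgeR adjusted p = 2.01e-06), from 70.8, 121, 136 and 147 to 39.4, 30.8, 82.8 and 66.9, and Cd34 fell by 0.28 ± 0.06. Flt3 (−0.05 ± 0.08) and Slamf1 (0.19 ± 0.15) did not pass, and Slamf1 took the opposite sign at cuts of 2 and 5 UMIs. In all 6 of 8 members passed, where 23.1% of the 10835 genes tested did.

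Neutrophil-list cells (5787 cells) showed nearly the opposite pattern. Cd48 rose by 0.72 ± 0.05, to 108 and 174 CPM in the controls and 207 and 227 in the knockouts, and Cd34 rose by 0.30 ± 0.07. Summed over the class, Cd34 rose clearly only in the knockouts and stood near its reference level in the controls. At 3 to 9 list UMIs, whatever the class, it stood at 384 and 340.2 in the controls and 301 and 299.5 in the knockouts. That was above its reference level in every library. By a term described below, the change of the Cd34 class sums differed between the genotypes (0.32 ± 0.08, edgeR adjusted p = 0.0199). Slamf1 fell by 2.06 ± 0.16, to 0.972 and 1.52 against 2.75 and 3.70, and Esam fell by 1.76 ± 0.14. Ly6a (−0.83 ± 0.05), Procr (−0.76 ± 0.12), Kit (−0.32 ± 0.05) and Flt3 (−0.26 ± 0.09) fell as well. By the same term Flt3, summed over the class, fell less in the knockouts (0.41 ± 0.10, edgeR adjusted p = 0.0226), which DESeq2 did not call. The genotypes are not matched for place on the list. At 30 or more list UMIs Flt3 stood at 9.94 and 14.3 in the controls, and each knockout held 9 cells. At 10 to 29 it stood at 39.9 and 54.0 in the controls and 29.9 and 16.2 in the knockouts. Whether place on the list bears on either term was not tested. All 8 members passed edgeR's test (background 38% of 11740 genes), Flt3 only narrowly (edgeR adjusted p = 0.0440), and it was lost without either control library (edgeR adjusted p = 0.206 without replicate 1 and 0.125 without replicate 2). Cd34 was lost without knockout replicate 1 (edgeR adjusted p = 0.0504).

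**Figure D3:**
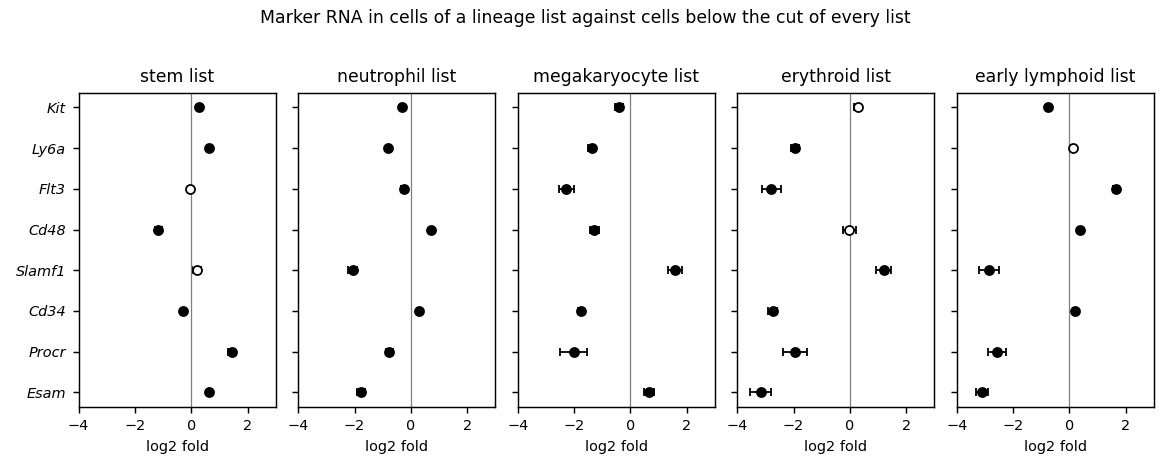
Log2 fold of each marker RNA in cells of 5 lineage lists against cells below the cut of every list, with the library as a block (points, with SE bars, filled where the adjusted p is below 0.05). Slamf1 is raised in the megakaryocyte and erythroid panels (1.57 and 1.20) and lowered in the neutrophil and early lymphoid panels (−2.06 and −2.85).

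In early lymphoid cells (498 cells, where Dntt made up 97.3% of the list's UMIs) Flt3 rose by 1.64 ± 0.10 (edgeR adjusted p = 3.19e-11). Flt3 ran at 122 and 192 CPM in the controls and 152 and 124 in the knockouts, against 56.1, 73.3, 38.3 and 35.7 in the reference cells, so every early lymphoid sum lay above every reference sum. Cd48 (0.39 ± 0.07) and Cd34 (0.19 ± 0.05) rose, Cd34 passing in only 5 of 9 other settings. Among the settings that lost its call were those without control replicate 1 or knockout replicate 2 (edgeR adjusted p = 0.127 and 0.0888). Esam fell by 3.11 ± 0.21, Slamf1 by 2.85 ± 0.36, Procr by 2.58 ± 0.32 and Kit by 0.75 ± 0.08, while Ly6a did not pass (0.11 ± 0.08). The class held 9 Slamf1 and 14 Procr UMIs in all, so the size of those falls is loosely set. The background was 16% of 10513 genes.

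Slamf1 rose in both classes of the megakaryocyte and erythroid side. Megakaryocyte-list cells (led by Pf4) reached 20 cells only in control replicate 1 and knockout replicate 2. With so few sums, the p-values of this class rest mostly on variance shared across genes and little on replication. In these 2 libraries Slamf1 rose by 1.57 ± 0.25 (edgeR adjusted p = 1.18e-08), from 6.03 to 19.3 and from 12.9 to 38.4 CPM, and Esam by 0.67 ± 0.17. Flt3 (−2.28 ± 0.26), Procr (−2.01 ± 0.49), Cd34 (−1.76 ± 0.10), Ly6a (−1.38 ± 0.11), Cd48 (−1.28 ± 0.15) and Kit (−0.41 ± 0.13) fell, all 8 members passing where 13.7% of 10710 genes did. DESeq2 kept 5 of the 8 and lost Kit, Procr and Esam (3.51% of genes called).

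Erythroid-list cells (led by Car1) could be tested in 3 libraries, without control replicate 2, whose class held 19 cells. Slamf1 rose by 1.20 ± 0.27 (edgeR adjusted p = 0.00839), from 6.03 to 7.25 in control replicate 1, from 12.1 to 27.9 in knockout replicate 1 and from 12.9 to 34.1 in knockout replicate 2, so that the rise was small in the control and wide in the knockouts. Without knockout replicate 2 it was 0.89 and did not pass (edgeR adjusted p = 0.265), and Procr lost its call likewise (edgeR adjusted p = 0.176). Esam (−3.16 ± 0.37), Flt3 (−2.78 ± 0.34), Cd34 (−2.74 ± 0.16), Ly6a (−1.96 ± 0.14) and Procr (−1.94 ± 0.43) fell. Knockout replicate 1 held no Flt3 or Esam UMI in this class. Kit (0.28 ± 0.13) and Cd48 (−0.03 ± 0.23) did not pass, Cd48 standing at 27.2 in control replicate 1 and at 169.6 and 173 in the knockouts, and 6 of 8 members did, where 22.6% of 10521 genes passed.

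Esam and Slamf1 thus went together in megakaryocyte-list cells and apart in erythroid-list cells. In every library Slamf1 was lower in early lymphoid and neutrophil-list cells, at 0 to 3.70 CPM, than in reference and stem-list cells, at 6.03 to 14.7. Erythroid-list cells stood below stem-list cells in control replicate 1 and above them in both knockouts. Megakaryocyte-list cells of at least 20 cells stood at 19.3 and 38.4. The difference between the reference and stem-list classes did not pass the test.

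The neutrophil list covers a wide span, so the members were also followed along it, in steps added after the data were seen. The steps took all cells of at least 3000 UMIs, whatever their class. At 0 list UMIs, 389 of 733, 183 of 395, 308 of 525 and 1003 of 1648 cells were reference cells, and the rest belonged to other classes. Esam fell from 23.2, 36.2, 35.6 and 41.9 CPM at 0 list UMIs to 4.08, 4.25, 3.32 and 6.16 at 10 to 29. Slamf1 fell from 9.31, 12.1, 15.3 and 15.9 to 0.860, 0.850, 1.99 and 0.769. Ly6a, Kit and Procr were also lower at 10 to 29 list UMIs than at 0 in every library. Flt3 was lower in 3 of the 4 and stood at 39.4 and 39.9 in control replicate 1.

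Cd34 and Cd48 behaved differently. Cd34 rose from 169, 235, 184 and 185 at 0 list UMIs to 384, 340.2, 301 and 299.5 at 3 to 9, and stood at 215 and 175 in the controls at 30 or more. Reference cells held Cd34 at 235 to 310 CPM, erythroid-list cells at 21.5 to 42.6 and megakaryocyte-list cells at 72.2 to 92.8. The part of the rise due to other classes at 0 list UMIs was not tested. Cd48 rose from 48.5, 97.5, 116 and 120 at 0 to 115, 170.4, 212 and 224 at 10 to 29. At 30 or more list UMIs each knockout library held 9 cells, so this step was read only in the controls, where Flt3 had fallen to 9.94 and 14.3.

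**Figure D4:**
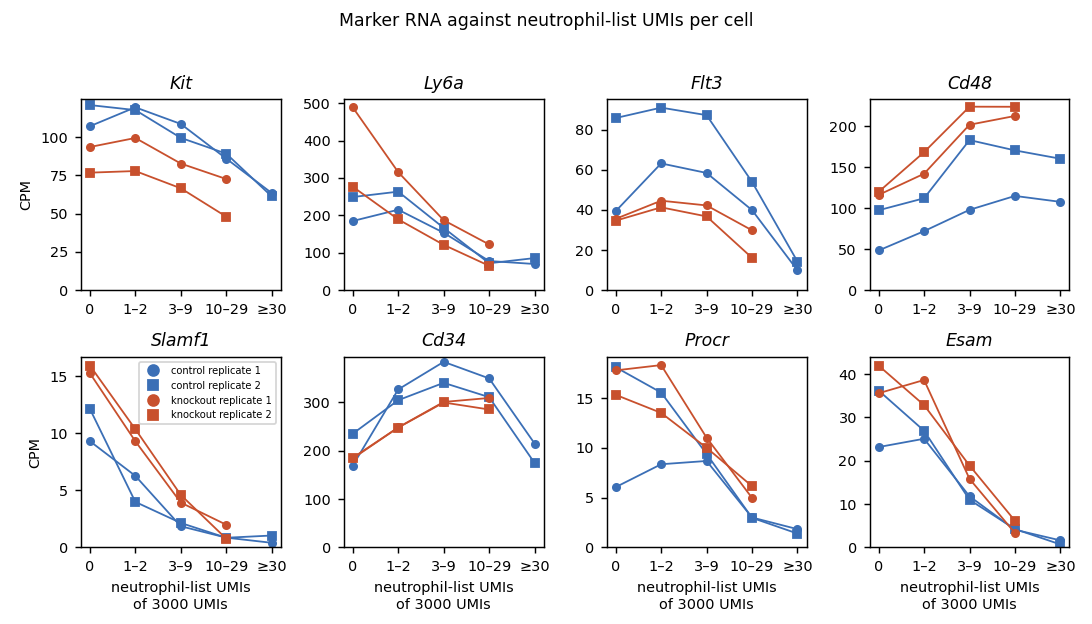
CPM of each marker RNA (vertical axes, from 0) against the number of neutrophil-list UMIs per cell after thinning to 3000 (horizontal axis, 5 steps), 1 line per library, with steps of fewer than 20 cells left out. Cells of every class enter the steps. Slamf1 and Esam are lower at 10 to 29 list UMIs than at 0 in every library. Cd34 is highest at 3 to 9 or 10 to 29 list UMIs (299.5 to 384 at 3 to 9).

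Since the classes differ in size between genotypes and in marker level, genotypes were compared within them. Among the reference cells, 0 of 8 members passed edgeR's test (1.42% of 11902 genes did), with 1 call, Flt3, by DESeq2 (which called 3.13% of genes). Flt3 had the largest fall, from 56.1 and 73.3 CPM in the controls to 38.3 and 35.7 in the knockouts, a log2 fold change of −0.79 ± 0.19 (edgeR adjusted p = 0.0755, 6 of 16 other settings passed). Here both controls stood well above both knockouts. Kit (−0.41 ± 0.17) and Cd34 (−0.33 ± 0.15) were lower, and Slamf1 (0.85 ± 0.23), Procr (0.74 ± 0.32), Cd48 (0.57 ± 0.27) and Esam (0.54 ± 0.20) higher in the knockouts without passing. Ly6a was at 199 and 226 against 298 and 197, a log2 fold change of 0.23 ± 0.22, and at 271 and 189 in the knockouts once cells of the antibody-secreting list were removed.

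The fold of Slamf1 was 1.43 over all cells and 0.85 among the reference cells, and that of Esam 0.94 and 0.54. Both RNAs were lower in neutrophil-list than in reference cells, and the neutrophil list made up 66.1% of control replicate 1 and 16.9% of knockout replicate 2. Inside the neutrophil list the fold was 1.48 ± 0.38 for Slamf1 (edgeR adjusted p = 0.0719) and 1.30 ± 0.21 for Esam, no smaller than over all cells. The part of the all-cell fold due to class sizes was not tested.

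Within stem-list cells Cd48 passed (edgeR adjusted p = 0.0280, background 3.1% of 10088 genes), at 39.4 and 30.8 CPM in the controls and 82.8 and 66.9 in the knockouts, a log2 fold change of 1.06 ± 0.21. DESeq2, with 3.43% of genes called, called it too, and leaving out either knockout library lost the call. Flt3 was lower in these cells, at 59.7 and 68.6 against 34.5 and 40.9 (−0.79 ± 0.21, edgeR adjusted p = 0.0621). Procr, which was raised in the class, overlapped between the genotypes (30.2 and 46.5 against 43.4 and 36.8, a log2 fold change of 0.02 ± 0.25).

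Within neutrophil-list cells Esam and Procr passed (background 4.26% of 11684 genes). Esam stood at 5.40 and 5.38 CPM in the controls and 11.6 and 15.3 in the knockouts (1.30 ± 0.21, edgeR adjusted p = 0.0166), and Procr at 4.22 and 4.91 against 9.41 and 8.55 (0.99 ± 0.22, edgeR adjusted p = 0.0464). Elane made up a smaller share of the list's UMIs in the knockouts, as given above. The genotypes are not matched for place on the list. At 3 to 9 list UMIs, whatever the class, Esam stood at 11.8 and 10.999 in the controls and 15.8 and 18.9 in the knockouts. At 10 to 29 it stood at 4.08 and 4.25 against 3.32 and 6.16, so the genotypes overlapped. Procr stood at 8.69 and 9.39 against 11.03 and 10.01 at 3 to 9. At 10 to 29 Procr stood at 3.01 and 2.97 against 4.98 and 6.16. Whether place on the list bears on the Esam and Procr calls was not tested. DESeq2 called Esam alone (4.17% of genes). Without knockout replicate 1 only Esam passed, and without knockout replicate 2 neither did. Within early lymphoid cells no member passed edgeR's test (1.13% of 8995 genes did) and DESeq2 called none. Slamf1, Procr and Esam were too sparse there to be tested. Whether the fold of a list over the reference cells differed between the genotypes was tested as well. For the neutrophil list 3 members passed (Cd34, Flt3 and Esam, background 5.81% of 11740 genes), and for the early lymphoid list 1 (Flt3, background 0.656%). None passed by edgeR for the stem list (background 0.443%), where DESeq2 called none of those to which it gave an adjusted p.

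**Figure D5:**
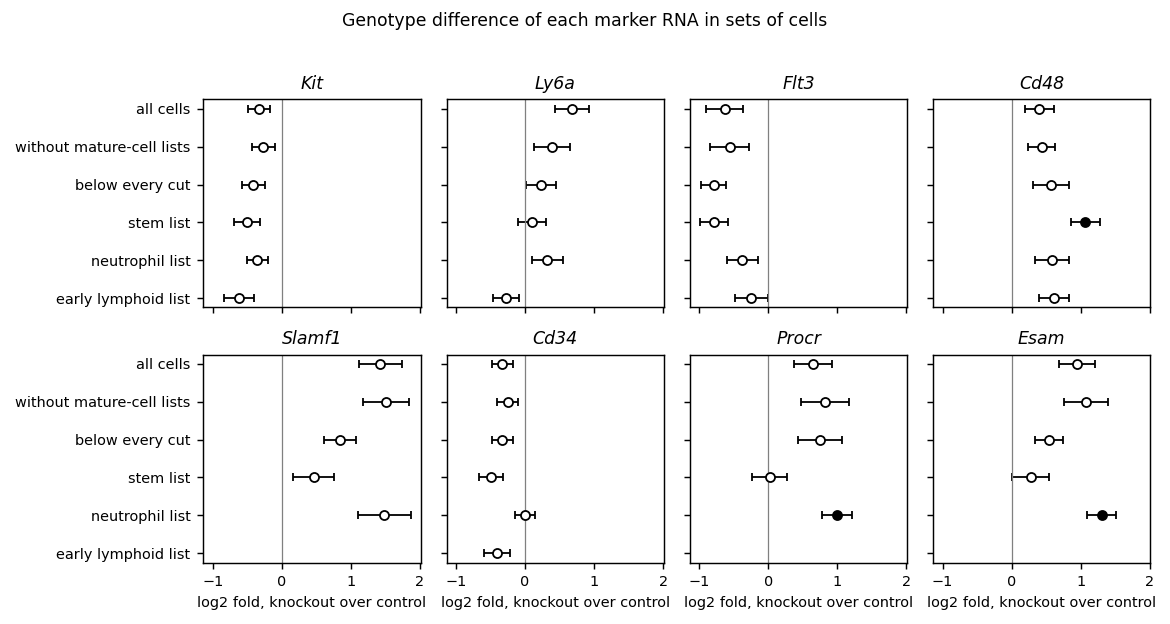
Log2 fold change, knockout over control, of each marker RNA in all cells, in cells of at least 3000 UMIs without those of the mature-cell lists, in cells below every cut and within 3 lineage lists (points with SE bars, filled where the adjusted p is below 0.05). Cd48 in stem-list cells and Esam and Procr in neutrophil-list cells are filled, and Ly6a is at 0.68 in all cells and at 0.39 without the mature-cell lists.

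Related surface genes from lists fixed by family were read in the all-cell comparison. There 3.44% of the 13779 genes tested passed, and the classes differ in size between the genotypes. Of 32 other surface genes, 1 rose and 3 fell by edgeR's test: Thy1 rose by 1.85 ± 0.21, and Fcgr3, an Fc receptor (−3.19 ± 0.18), Csf2ra, a GM-CSF receptor chain (−1.20 ± 0.14), and Il6ra, an interleukin-6 receptor chain (−1.02 ± 0.19), fell. The list's median was −0.20, against −0.01 over all genes. Of 9 SLAM family genes, 2 rose, Slamf7 by 2.11 ± 0.26 and Slamf9 by 3.13 ± 0.43, and the median was 0.79. Slamf7 ran at 1.17 and 1.59 against 6.05 and 5.81 CPM and is known from plasma cells. The 6 genes of the antibody-secreting list had a median of 1.61 in the same comparison, with none past the test. Among the reference cells 2 of the 6 passed edgeR's test, Jchain (8.99 ± 0.70) and Mzb1 (6.56 ± 1.21), where 1.42% of 11902 genes did. Whether cells of that list bear on the Slamf7 difference was not tested.

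Of 10 Ly6 family genes, 8 were tested, 1 rose (Ly6d, by 2.46 ± 0.30) and 2 fell (Ly6c2 by 2.36 ± 0.23 and Ly6i by 2.42 ± 0.32). Among the reference cells Ly6c2 went the other way without passing (2.01 ± 0.50, edgeR adjusted p = 0.0828). Ly6e, at 627 and 390 CPM in the controls and 488 and 371 in the knockouts, did not pass. Of 5 type III receptor tyrosine kinases, the family of Kit and Flt3, 4 were tested and 1 fell, Csf1r, the receptor of macrophage colony-stimulating factor, by 3.28 ± 0.32. Of 8 immediate early genes, a list added after the data were seen because such RNAs respond to cell handling, Fos, Jun, Egr1 and Ier2 fell and none rose. Of 10 interferon response genes, a list also added after the data were seen, none passed edgeR's test, where 3.44% of all genes did. Their median was −0.24. Ly6a is itself induced by interferon, and whether interferon bears on its difference was not tested.

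The genes most like each member were sought over 30 sums of a class in a library, by the correlation of log2 levels centred within each library, among 8064 genes. These are descriptions over classes that share libraries. Procr was most like Hlf (r = 0.91) and Mecom (0.86), both genes of the stem list that formed the classes, and Nceh1 (0.83). Slamf1 was most like F2r (0.93), a thrombin receptor, Plxnc1 (0.91) and Zfpm1 (0.90), the GATA1 cofactor FOG1.

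Esam was most like Scarf1 (0.93), and Gng11 (0.92) was also among its 3 nearest. Flt3 was most like Calcrl (0.89), Satb1 (0.89), a chromatin organiser of lymphoid cells, and Wfdc17 (0.88). Cd34 was most like Kcnk12 (0.95), Cd27 (0.94) and Plppr3 (0.94). Kit was most like Frmd4a (0.89), Pank1 (0.84) and Heatr5a (0.84), Ly6a like Entpd1 (0.95), Shisa5 (0.93) and Ctss (0.92), and Cd48, the least alike to any gene, like Psmb8 (0.78), Plac8 (0.77) and Ap3s1 (0.77).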

How the data were processed

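LSK cells sorted from bone marrow were profiled with 10x Genomics 3′ v3.1 chemistry. According to the methods and the submitters' processing notes, the authors used Cell Ranger 3.1 on GRCm38/mm10, and they deposited UMI counts per gene and barcode for each library, unfiltered beyond cell calling. The unit is a whole-number count.

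From these counts, a barcode was used if it held 200 or more genes, if mitochondrial genes gave no more than 10% of its UMIs and if it was not a copy (a UMI ratio of 3 between libraries). Doublets were not called, and cells that led with equal UMIs of 2 lists were set aside as mixed. Counts were summed per library, or per class of at least 20 cells in a library, and tested with edgeR 4.0.16 (filterByExpr, TMM, quasi-likelihood, Benjamini-Hochberg over all genes, threshold 0.05), with DESeq2 1.42.0 as an alternative, in R 4.3.3. Cells were counted in Python 3.11.15 with numpy 2.4.6, scipy 1.17.1 and pandas 2.3.3. Intervals are 95% Clopper-Pearson intervals. The edgeR step was tested on simulated counts.

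The members and lists were chosen with earlier results of these data known. The comparisons of genotypes within a list, the genotype-by-list term, the neutrophil steps and the antibody-secreting, interferon response and immediate early lists were added after the data were seen. Genes named are the 8 members, listed genes past the threshold and the 3 genes most like each member, of which 1 is not reported here. Replicates are libraries of pooled marrows, and p-values between genotypes measure the spread between 2 libraries per genotype. P-values of a list against the reference cells measure the spread of the change within libraries. They rest on 4 libraries, 3 for the erythroid and 2 for the megakaryocyte list. The genotype-by-list term compares that change between the genotypes. The day of harvest was not given in the sources used here. Other settings were another thinning (1000 or 6000 UMIs), another cut (2 or 5 UMIs), a minimum of 500 genes, no low-count filter, copied barcodes kept in, a replicate block and each library left out in turn. Promoter windows come from RefSeq.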

Additional observations from a re-analysis of the deposited data

Results flagged for a closer look

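In 4 cases the change of a marker RNA from the reference cells to a lineage list differed between the genotypes, by a term for that difference added to the fit after the data were seen. In neutrophil-list cells the log2 difference, knockout minus control, was 0.32 ± 0.08 (SE) for Cd34 (edgeR adjusted p = 0.0199), 0.41 ± 0.10 for Flt3 (edgeR adjusted p = 0.0226) and 0.64 ± 0.17 for Esam (edgeR adjusted p = 0.0331), where 5.81% of 11740 genes passed. Cd34 stood at 310 and 291 CPM in the control reference cells and 315 and 279 in the neutrophil list, against 239 and 235 and then 306 and 301 in the knockouts. Esam fell from 23.7 and 33.1 to 5.40 and 5.38 in the controls and from 40.2 and 41.1 to 11.6 and 15.3 in the knockouts. DESeq2 called Cd34 (adjusted p = 0.0231), did not call Flt3 (adjusted p = 0.309) and gave no adjusted p for Esam. The genotypes are not matched for place on this list. At 30 or more list UMIs there were 1098 and 84 control cells, against 9 cells in each knockout. Whether this bears on these terms was not tested.

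In early lymphoid cells the difference was 0.56 ± 0.13 for Flt3 (edgeR adjusted p = 0.0274, where 0.656% of 10513 genes passed), which rose from 56.1 and 73.3 to 122 and 192 in the controls and from 38.3 and 35.7 to 152 and 124 in the knockouts. DESeq2 did not call it (adjusted p = 0.9999, unadjusted p = 0.00748). The knockouts started lower among the reference cells, and the levels reached in the list overlapped between the genotypes. Both lists were set against the same reference cells. No such difference passed for the stem list (0.443% of 10835 genes did).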

How the results depend on the processing

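Over 13 other settings all 8 members kept their direction in all cells, and among the reference cells 127 of 128 values did. The count of members past the threshold was 0 in all cells (3.44% of all genes passed) and 2 with DESeq2 (5.96%), 5 with no low-count filter (10.1%) and 0 to 5 with a library left out (2.68% to 20.7%). Among the reference cells it was 0 (1.42%), and 1 with DESeq2 (3.13%) or thinning to 1000 UMIs (5.11%), 5 with no low-count filter (7.81%) and 0 to 5 with a library left out (0.118% to 23.1%). Replicate numbers share only a number: deviations of same-numbered libraries correlated at −0.18 over 7924 genes and −0.17 over 8022. With a replicate block 3 members passed in all cells (9.12% of genes) and 2 among the reference cells (6.31%), and with the pairing crossed 5 (12.6%) and 2 (8.05%). For the megakaryocyte list DESeq2 called 5 in place of 8. Within the stem list the count of 1 ran from 0 to 3 with a library left out (0% to 21.9% of genes), within the neutrophil list the count of 2 ran from 0 to 5 (0.424% to 20.6%) and was 1 with DESeq2, and within the early lymphoid list the count of 0 ran from 0 to 2 (0.0564% to 13.7%). The genotype-by-list calls fell with DESeq2 from 3 to 1 (neutrophil) and from 1 to 0 (early lymphoid).

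With a library left out the genotype difference also changed sign for Procr, Esam and Ly6a within the stem list, Ly6a and Cd34 within the neutrophil list and Flt3 within the early lymphoid list, none of those values past the threshold. Other values that turned their sign were Ly6a among the reference cells (−0.0726 to 0.490 with a library left out, lowest without knockout replicate 1), Slamf1 in the stem list (−0.17 at a cut of 2 and −0.0769 at 5), Cd48 in the erythroid list (0.0485 at a cut of 2, and −0.32 to 0.34 with a library left out, highest without control replicate 1) and Ly6a in the early lymphoid list (−0.0783 at a cut of 5). The detection difference of Kit was 0.0676 percentage points without thinning, and that of Procr ran from −0.251 without control replicate 1 to 2.88 without control replicate 2. Among the reference cells the mean co-detection ratio of Kit and Ly6a was 0.995 and that of Flt3 and Cd48 was 1.00. At 1000 UMIs Flt3 and Slamf1, and Slamf1 and Procr, were at 0 and Flt3 and Cd34 at 1.29, and at 6000 UMIs Slamf1 and Procr were at 2.03. Slamf1 was found in only 0.321% to 1.59% of cells at 1000 UMIs and Procr in 0.975% to 2.18%. Few cells with both were expected there, so a ratio of 0 says little. The cause of these shifts was not tested. Leaving out a library was not run for the megakaryocyte list, which has 2 libraries, nor for control replicate 2 in the erythroid list, where it does not enter the fit. Depth limits Slamf1, Procr and Esam most.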
